A study of Mus musculus with 22 samples.

Results

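The genes described here are 8 transcription factors that mark and build the definitive endoderm, the germ layer from which the epithelium of the gut, liver, pancreas and lungs arises: Sox17, Foxa1, Foxa2, Foxa3, Gata4, Gata6, Hnf4a and Hhex. They were taken by gene symbol as a named set, with no threshold on their values but with earlier results of these data known. They are 8 of the 55055 genes listed in all 4 deposited count tables. Each symbol matched 1 Ensembl gene, and all 8 are protein-coding.

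In the gastrulating embryo, strong signalling by Nodal, a TGF-beta ligand for which Activin A stands in culture, switches on Eomes and its partners in cells leaving the primitive streak, and these in turn start the endoderm factors. Sox17 is an HMG-box factor required for definitive endoderm. Foxa1, Foxa2 and Foxa3 are forkhead factors; Foxa2 comes on early in endoderm, node and notochord, Foxa1 follows, and Foxa3 comes later in the gut tube. FOXA and GATA proteins are called pioneer factors because they bind their sites in closed chromatin. Gata4 and Gata6 are zinc-finger factors of endoderm and heart mesoderm. Hhex is a homeobox factor of the anterior endoderm and of the liver and thyroid buds, and Hnf4a is a nuclear receptor of visceral endoderm, liver and gut epithelium. Gata4, Gata6, Sox17, Foxa2, Hnf4a and Hhex are also expressed in extra-embryonic endoderm, so none of them marks definitive endoderm by itself.

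Bulk poly(A) RNA was sequenced from 22 libraries of mouse embryonic stem (mES) cells and their derivatives in 10 groups, with wild-type (wt) cells and cells of genotype Hox-/- (BADC in the sample titles). The mES cells (2 libraries per genotype) grew in medium that held LIF together with CHIR99021 (3 µM), which blocks GSK-3, and a blocker of MEK (1 µM). Endoderm cultures (3 libraries per genotype) were adherent cells given 100 ng/ml Activin A with 3 µM CHIR99021 at 24 h and again at 72 h, and collected at 120 h. Gastruloids (stem cell aggregates that mirror early axial development) were collected at 96 h and 120 h (2 libraries each) as Activin A gastruloids of both genotypes and as Chiron gastruloids of wt cells only. Chiron is the short name of the GSK-3 inhibitor, which activates Wnt signalling. Gastruloid doses are not in the labels, which call the cells of endoderm cultures and gastruloids mixed and do not say whether replicates came from separate cultures or whether the Hox-/- cells are 1 clone, so p-values measure the spread between these libraries, which may be technical.

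The libraries held 9108085 to 28819301 counts, and the 120 h gastruloids (9108085 to 11930416) were shallower than the 96 h gastruloids (14953662 to 28819301). Levels are given as CPM, a gene's count scaled to the total of its library, unless FPKM is named. The 39 Hox genes checked the genotype labels. Their summed level was 30.4 and 35.7 CPM in wt mES cells against 0.448 and 1.34 CPM in Hox-/- mES cells, 828 to 877 against 22.5 to 28.6 CPM in endoderm cultures, 625 and 660.5 against 102 and 104 CPM in Activin A gastruloids at 96 h, and 1167 and 1190 against 63.8 and 69.5 CPM at 120 h. The cells also differed in another way: 3 Y-linked genes summed to 98.7 to 184 CPM in the wt libraries and to at most 0.345 CPM in the Hox-/- libraries. The genotypes therefore differ in more than Hox genes, and the part of this difference in the results below was not tested.

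Promoter sequences are shown for the forkhead family and for Hnf4a, because the 3 forkhead genes were lower together in Hox-/- cultures and Hnf4a showed the largest fall in the endoderm culture. RefSeq (GRCm38.p6) listed promoters for 5 of the 8 genes, Foxa1, Foxa2, Foxa3, Hnf4a and Hhex, and up to 250 bases before the start site that lie in no annotated exon are printed 5′ to 3′ on the gene's strand. Positions are counted from the RefSeq start site, with -1 the base just before it. The Foxa1 stretch is chr12:57546122-57546361 (minus strand), the Foxa2 stretch chr2:148046970-148047219 (minus), the Foxa3 stretch chr7:19023540-19023789 (minus) and the Hnf4a stretch, before the downstream of 2 listed starts, chr2:163546943-163547154 (plus). Capitals mark letters that match a searched motif on either strand.
Foxa1: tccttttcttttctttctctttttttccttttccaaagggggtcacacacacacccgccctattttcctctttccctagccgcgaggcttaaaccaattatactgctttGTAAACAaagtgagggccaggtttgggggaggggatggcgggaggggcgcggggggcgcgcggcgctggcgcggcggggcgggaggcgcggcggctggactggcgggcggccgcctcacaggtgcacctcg
Foxa2: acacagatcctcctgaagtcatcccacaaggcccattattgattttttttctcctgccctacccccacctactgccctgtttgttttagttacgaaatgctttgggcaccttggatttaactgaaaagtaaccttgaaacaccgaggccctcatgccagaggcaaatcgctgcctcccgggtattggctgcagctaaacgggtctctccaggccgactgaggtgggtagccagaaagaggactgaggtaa
Foxa3: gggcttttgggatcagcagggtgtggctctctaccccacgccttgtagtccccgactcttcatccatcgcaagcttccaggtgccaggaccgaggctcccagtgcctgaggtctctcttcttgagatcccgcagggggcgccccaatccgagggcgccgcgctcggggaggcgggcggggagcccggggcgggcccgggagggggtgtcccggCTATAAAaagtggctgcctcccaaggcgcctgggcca
Hnf4a: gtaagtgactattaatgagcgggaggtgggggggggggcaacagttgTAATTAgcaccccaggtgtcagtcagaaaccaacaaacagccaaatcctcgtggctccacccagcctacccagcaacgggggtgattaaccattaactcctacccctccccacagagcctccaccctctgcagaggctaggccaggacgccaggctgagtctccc

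The motifs searched in the 250 bases before each start were the forkhead letters TGTTTAC and TGTTTGC, the GATA letters AGATAA, the Sox letters ACAATG, the Hnf4 letters CAAAGTCCA, the homeobox letters TAATTA and the Cdx and posterior Hox letters TTTATNG. The capitals in Foxa1 (-141 to -135) are TGTTTAC read on the other strand, a match held by 3.17% of the 32851 listed mouse promoters. Those in Foxa3 (-37 to -31) are TTTATNG on the other strand, held by 9.81%, and those in Hnf4a (-165 to -160) are TAATTA, held by 4.84%. The Foxa2 stretch and the Hhex promoter held none of the 7 motifs. AGATAA, held by 9.99% of promoters, was found at -52 to -47 before the upstream Hnf4a start and at -183 to -178 before the most downstream of 3 Foxa2 starts. The other forkhead letters (held by 4.3% of promoters), the Sox letters (10.7%) and the Hnf4 letters (0.384%) matched none of the 8 promoter windows of these 5 genes. A match describes letters in a window, not a bound site.

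Levels by cell type and condition came first. The mES cells, endoderm cultures and gastruloids come from separate deposited tables, so culture and table cannot be told apart between them. Sox17, the endoderm-specifying factor, was highest in the wt Activin A gastruloids, at 56.7 and 65.3 CPM at 96 h and 57.4 and 57.3 CPM at 120 h, and these pairs overlapped. The wt endoderm cultures followed at 23.9 to 25.5 CPM, then the Hox-/- endoderm cultures at 3.64 to 5.92 CPM and the Hox-/- gastruloids at 2.90 and 4.66 CPM (120 h), which overlapped, and at 1.87 and 2.29 CPM (96 h). Chiron gastruloids held 1.06 to 1.70 CPM, and mES cells of both genotypes at most 0.266 CPM. The plot of CPM by library shows the 8 genes together.

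**Figure D1:**
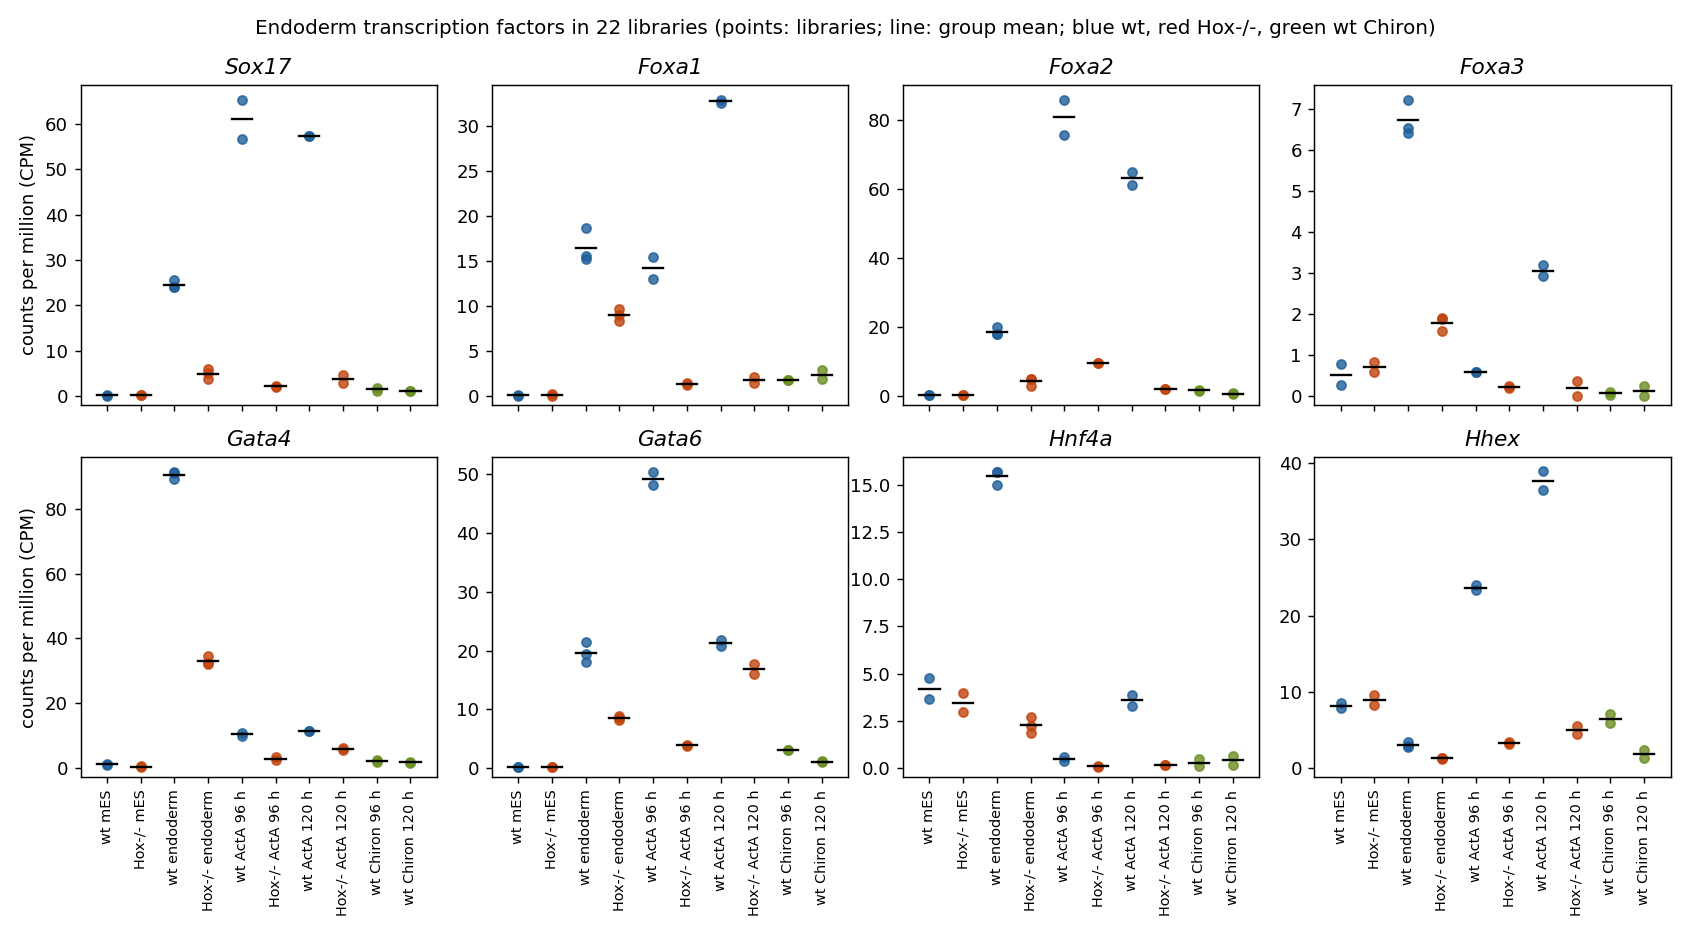
Level of each endoderm transcription factor in CPM (vertical axis, linear, scaled for each gene) in the 22 libraries; points are libraries, lines are group means, blue is wt, red is Hox-/- and green is wt Chiron gastruloids. Sox17, Foxa1, Foxa2, Gata6 and Hhex peak in wt Activin A gastruloids, while Gata4, Foxa3 and Hnf4a peak in the wt endoderm cultures.

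The forkhead genes peaked in different groups. Foxa2 was highest in wt Activin A gastruloids at 96 h (75.8 and 85.9 CPM), then at 120 h (65.0 and 61.3 CPM), with wt endoderm cultures at 17.9 to 20.0 CPM. Foxa1 was highest in wt Activin A gastruloids at 120 h (33.0 and 32.6 CPM), and its next groups, wt endoderm cultures (15.2 to 18.7 CPM) and wt gastruloids at 96 h (13.1 and 15.5 CPM), overlapped. Foxa3, the late member, was highest in wt endoderm cultures at 6.41 to 7.22 CPM, ahead of wt gastruloids at 120 h (2.92 and 3.18 CPM) and Hox-/- endoderm cultures (1.58 to 1.91 CPM). In mES cells Foxa1 and Foxa2 were at or below 3 counts in every library, which is 0.252 CPM or less.

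The GATA genes differed between the endoderm cultures and the gastruloids. Gata4 reached 89.2 to 91.4 CPM in wt endoderm cultures and 32.0 to 34.7 CPM in Hox-/- ones, well above wt gastruloids (9.82 to 11.6 CPM over both times). Gata6 was highest in wt Activin A gastruloids at 96 h (48.1 and 50.4 CPM), followed by wt gastruloids at 120 h (21.8 and 20.8 CPM) and wt endoderm cultures (18.0 to 21.5 CPM), which overlapped, and by Hox-/- gastruloids at 120 h (16.0 and 17.7 CPM). In FPKM, which corrects for gene length, the ratio of Gata6 to Gata4 was 0.197 ± 0.0134 (SD, n = 3) in wt endoderm cultures and 4.39 ± 0.101 (SD, n = 2) in wt Activin A gastruloids at 96 h.

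Hhex and Hnf4a had the highest CPM of the 8 genes in mES cells. Hhex stood at 7.84 and 8.55 CPM in wt and 9.56 and 8.32 CPM in Hox-/- mES cells, which overlapped, and was lower in endoderm cultures of both genotypes (2.70 to 3.36 CPM in wt). Its highest groups were wt Activin A gastruloids at 120 h (38.9 and 36.5 CPM) and 96 h (23.3 and 24.0 CPM). Hnf4a was highest in wt endoderm cultures (15.0 to 15.7 CPM); the next 3 groups, wt mES cells (3.65 and 4.74 CPM), wt gastruloids at 120 h (3.89 and 3.29 CPM) and Hox-/- mES cells (2.99 and 3.95 CPM), overlapped.

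The make-up of the set was compared per length, as each gene's share of the summed FPKM of the 8 genes. Gata4 held the largest share in wt endoderm cultures (40.6% ± 0.37, SD, n = 3), ahead of Sox17 (21.7% ± 1.2) and Foxa2 (11.8% ± 0.654). In wt Activin A gastruloids at 96 h Foxa2 (34.7% ± 0.942, SD, n = 2) and Sox17 (33.6% ± 0.178) held most, with Gata6 at 12.9% ± 0.32 and Hhex at 11.6% ± 0.614. At 120 h Hhex had 18.1% ± 0.76 and Foxa1 9.29% ± 0.302. In Hox-/- gastruloids Foxa2 held 43.9% ± 1.49 at 96 h and 7.02% ± 0.126 at 120 h, when Gata6 held 37.4% ± 5.06. Hhex alone made 73.6% ± 0.918 of the sum in wt mES cells.

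**Figure D2:**
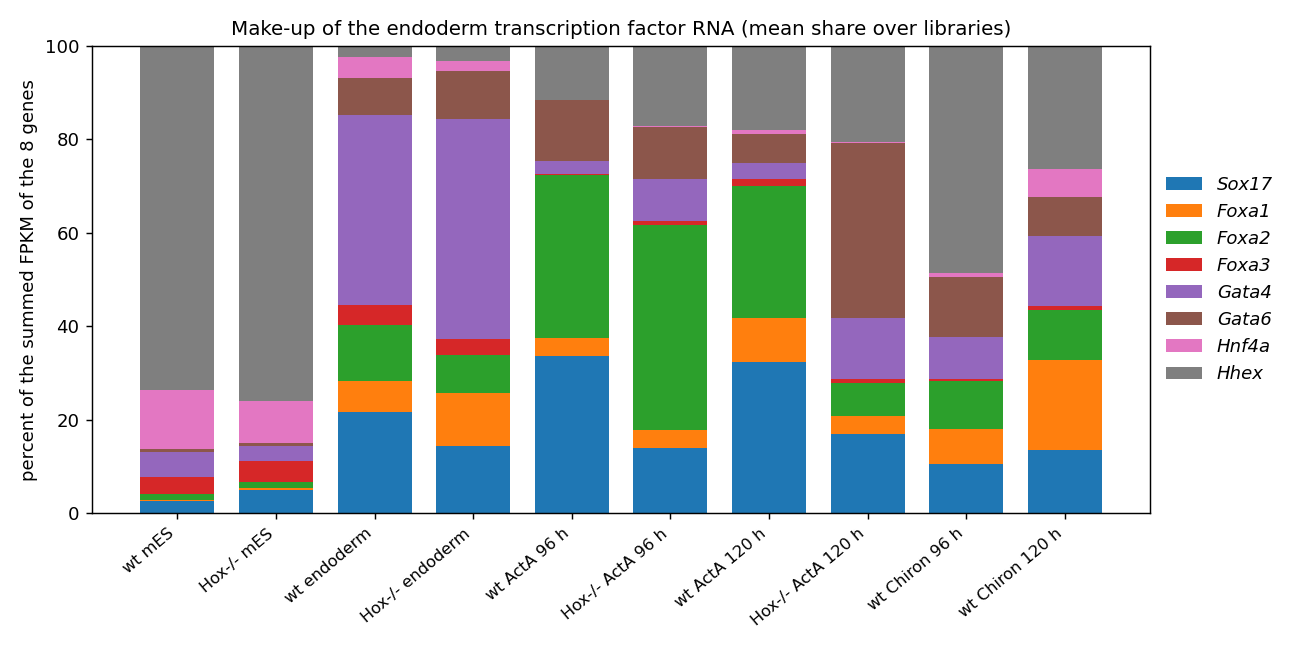
Share of each gene in the summed FPKM of the 8 endoderm transcription factors (vertical axis, percent, mean over the libraries of a group). Gata4 is the largest share in endoderm cultures of both genotypes, Foxa2 and Sox17 in wt Activin A gastruloids, and Hhex in mES cells; in Hox-/- gastruloids at 120 h Gata6 is the largest at 37.4%.

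The first comparison asked how the 8 factors differ between Hox-/- and wt cells after the endoderm protocol. All 8 were lower in the Hox-/- endoderm cultures. In each the 3 Hox-/- libraries lay below the 3 wt libraries, but the share of all genes that did so was not counted. Sox17, Foxa2 and Hnf4a were at 20.0%, 22.5% and 14.7% of the wt level, and Foxa1, the mildest, was at 55.3%. The summed level of the 8 genes was 64.9 ± 2.38 CPM in Hox-/- against 195 ± 3.59 CPM in wt cultures (SD, n = 3 each). Tests are edgeR's quasi-likelihood test with Benjamini-Hochberg adjustment over all genes tested, and a gene is called at an adjusted p under 0.05. Of the 14975 genes tested, 23.1% were higher and 23.1% lower in Hox-/- cultures.

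Sox17 read 3.64, 5.11 and 5.92 CPM in the Hox-/- cultures against 25.5, 23.9 and 24.1 CPM in wt, a log2 fold change of -2.32 (SE 0.129, adjusted p = 4.49e-09). Foxa2 read 2.78, 4.98 and 4.79 CPM against 20.0, 17.9 and 18.0 CPM (log2 fold change -2.15, SE 0.154, adjusted p = 5.89e-08). In both genes the lowest Hox-/- library was replicate 1, and no library came near the other genotype. Foxa1, at 9.66, 8.37 and 9.01 CPM against 18.7, 15.2 and 15.5 CPM, fell by 0.85 on the log2 scale (SE 0.108, adjusted p = 1.83e-05). Foxa3 read 1.88, 1.91 and 1.58 CPM against 6.41, 6.53 and 7.22 CPM, a log2 fold change of -1.90 (SE 0.169, adjusted p = 5.73e-07). The forkhead genes thus ran from 1.81-fold lower (Foxa1) to 4.44-fold lower (Foxa2).

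Gata4, the most abundant member here, was 32.3, 34.7 and 32.0 CPM against 89.2, 90.9 and 91.4 CPM, with a log2 fold change of -1.45 and the smallest SE of the set (0.056, adjusted p = 9.03e-11). Gata6 was 8.86, 8.12 and 8.44 CPM against 19.4, 18.0 and 21.5 CPM (log2 fold change -1.20, SE 0.101, adjusted p = 3.22e-07). The Gata6 to Gata4 ratio in FPKM was 0.219 ± 0.0241 in Hox-/- and 0.197 ± 0.0134 in wt cultures (SD, n = 3 each), with overlapping libraries. Hnf4a, at 1.88, 2.21 and 2.71 CPM against 15.7, 15.0 and 15.7 CPM, had the largest difference of the set (log2 fold change -2.76, SE 0.137, adjusted p = 1.34e-09). Hhex was low in both, at 1.25, 1.35 and 1.32 CPM against 2.92, 3.36 and 2.70 CPM (log2 fold change -1.19, SE 0.217, adjusted p = 0.000488). The median log2 fold change of the 8 genes was -1.67, beside 0.00173 over all genes tested. In bulk samples fewer cells of a type and less RNA per cell cannot be told apart, here and in all comparisons below.

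**Figure D3:**
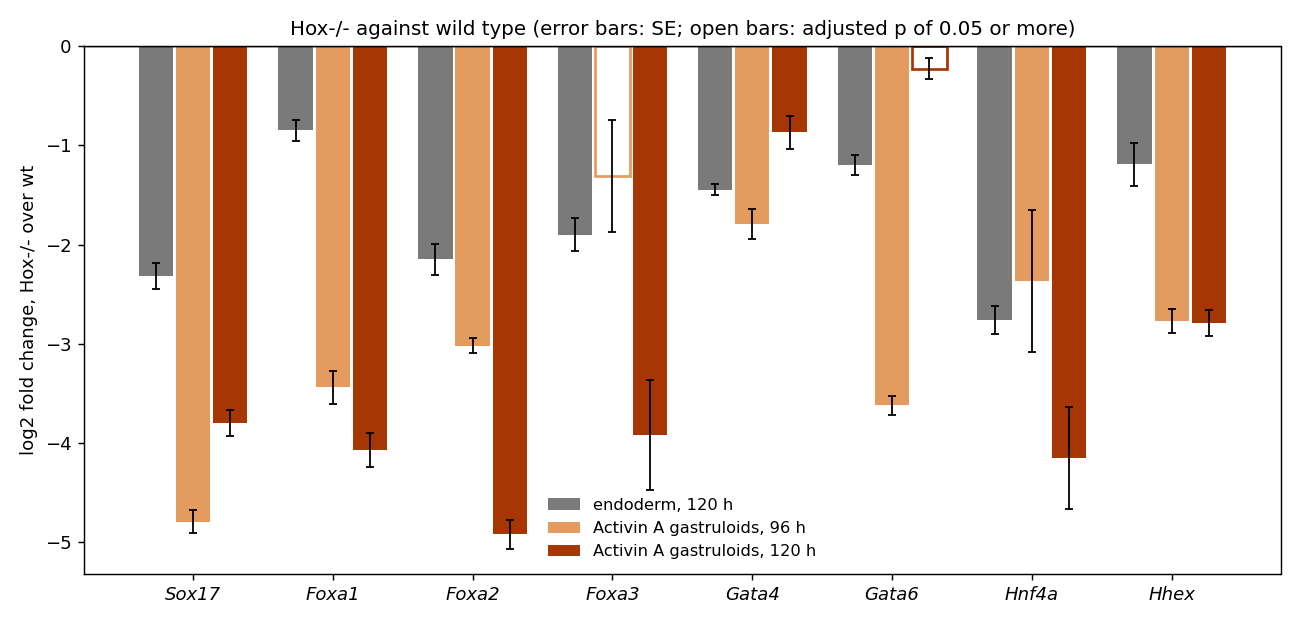
Log2 fold change of Hox-/- over wt (vertical axis) for each gene in endoderm cultures and in Activin A gastruloids at 96 h and 120 h; error bars are SE and open bars did not pass an adjusted p of 0.05. Every bar lies below 0; the open bars are Foxa3 at 96 h (-1.31) and Gata6 at 120 h (-0.23), and the Hnf4a gastruloid bars are fitted values against Hox-/- libraries at or below 3 counts.

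The next comparison asked the same of Activin A gastruloids. At 96 h 7 of the 8 factors were lower in Hox-/- gastruloids, 6 of them by 3.45-fold (Gata4) to 27.7-fold (Sox17) and Hnf4a by at least 2.83-fold, and the summed level of the 8 was 23.4 ± 0.133 CPM against 240 ± 17.6 CPM (SD, n = 2 each). At 120 h 7 of 8 were again lower, 6 of them by 1.82-fold (Gata4) to 30.2-fold (Foxa2) and Hnf4a by at least 13.3-fold, with a sum of 35.5 ± 1.70 against 230 ± 5.78 CPM. Of 16831 genes tested, 22.2% were higher and 16.7% lower at 96 h, and 24.9% were higher and 25.5% lower at 120 h. The split of all calls depended on scaling: higher calls were 57% of all calls at 96 h and 49.4% at 120 h with TMM scaling, and 42.5% and 34.6% with total counts alone, which moved the all-gene median at 120 h from -0.0205 to -0.132. The members' median log2 fold change was -2.90 at 96 h and -3.86 at 120 h (-3.77 with Hnf4a at its bound), beside all-gene medians of 0.0348 and -0.0205.

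Sox17 read 2.29 and 1.87 CPM in Hox-/- gastruloids at 96 h against 56.7 and 65.3 CPM in wt, and 4.66 and 2.90 CPM against 57.4 and 57.3 CPM at 120 h. Its log2 fold changes were -4.79 (SE 0.115, adjusted p = 4.46e-36, edgeR) and -3.80 (SE 0.132, adjusted p = 2.02e-29). Hox-/- libraries at 120 h differed by more than those at 96 h, and all lay far below every wt library. Foxa2 read 9.63 and 9.56 CPM against 75.8 and 85.9 CPM at 96 h, and 1.98 and 1.87 CPM against 65.0 and 61.3 CPM at 120 h, with log2 fold changes of -3.02 (SE 0.0756, adjusted p = 2.12e-35) and -4.92 (SE 0.142, adjusted p = 5.55e-33). The wt level at 120 h was 74% of that at 96 h, and the Hox-/- level was 19.9%. Foxa1 read 1.17 and 1.4 CPM against 13.1 and 15.5 CPM at 96 h (fold change -3.44 as log2, SE 0.17, adjusted p = 6.9e-23). At 120 h it read 2.16 and 1.4 CPM against 33.0 and 32.6 CPM (-4.07, SE 0.174, adjusted p = 8.43e-26).

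Foxa3 was low at 96 h, at 0.234 and 0.201 CPM in Hox-/- against 0.578 and 0.581 CPM in wt gastruloids, and its log2 fold change of -1.31 (SE 0.567) did not pass (edgeR adjusted p = 0.0609, and 0.0412 when only the 2 groups compared were fitted). At 120 h it read 0 and 0.374 CPM (0 and 4 counts) against 2.92 and 3.18 CPM and was called lower (a log2 change of -3.92, SE 0.554, adjusted p = 4.31e-08). The size is uncertain, as the change was -2.89 without Hox-/- replicate 1 and -8.56 without replicate 2. Hnf4a was at or below 3 counts in each Hox-/- gastruloid library. At 120 h it was at least 13.3-fold lower than the 3.89 and 3.29 CPM of wt (adjusted p = 1.53e-09). At 96 h wt held 0.578 and 0.388 CPM, a difference of at least 2.83-fold (adjusted p = 0.00657) that was lost with DESeq2 (0.0548), with limma on log2(FPKM + 1) (0.205), and without wt replicate 1 (0.07) or Hox-/- replicate 1 (0.155).

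Both GATA genes were called lower in Hox-/- gastruloids at 96 h, and at 120 h only Gata4 was. Gata6 read 3.88 and 3.81 CPM in Hox-/- against 48.1 and 50.4 CPM in wt gastruloids at 96 h, a log2 fold change of -3.62 (SE 0.0965, adjusted p = 2.95e-34, edgeR). At 120 h it read 16.0 and 17.7 CPM against 21.8 and 20.8 CPM, a log2 fold change of -0.23 (SE 0.107) that did not pass (adjusted p = 0.0717), though the libraries did not overlap. This call turned with the processing: the adjusted p was 0.00659 with total counts alone, 0.0347 with genes of at least 10 counts in every library, and 0.0459 and 0.0358 with limma on FPKM. Gata4 read 2.62 and 3.28 CPM against 9.82 and 10.9 CPM at 96 h (a log2 change of -1.79, SE 0.151, adjusted p = 3.56e-14), and 6.21 and 5.42 CPM against 11.6 and 11.4 CPM at 120 h (-0.87, SE 0.168, adjusted p = 2.04e-05). Hhex read 3.41 and 3.21 CPM against 23.3 and 24.0 CPM at 96 h and 5.52 and 4.49 CPM against 38.9 and 36.5 CPM at 120 h, close to 7-fold lower at both times (6.84-fold and 6.94-fold; log2 fold changes -2.77, SE 0.117, and -2.79, SE 0.127).

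Whether the genotype difference itself changed between 96 h and 120 h was tested as an interaction. It changed for 5 of the 8 genes, 3 higher and 2 lower, beside 18.7% of all genes higher and 20.2% lower. Gata6 moved most, by 3.39 on the log2 scale (SE 0.156, adjusted p = 7.02e-24, edgeR): wt Gata6 fell from 96 h to 120 h (log2 change -1.29) while Hox-/- Gata6 rose (2.11). Foxa2 moved the other way (-1.89, SE 0.216, adjusted p = 4.69e-10), since its fall was 1.35-fold in wt and 5.02-fold in Hox-/- gastruloids. Sox17 (1.00, SE 0.255, adjusted p = 0.0014) and Gata4 (0.92, SE 0.236, adjusted p = 0.00141) were also called, but neither passed with limma on FPKM (0.121 and 0.089, and 0.152 and 0.0573), and Sox17 did not pass without Hox-/- 120 h replicate 1 (0.61, adjusted p = 0.182). Foxa3 (-2.60, adjusted p = 0.0276) was lost under 6 alternatives, with adjusted p from 0.051 to 0.231, and its value was -1.57 without Hox-/- 120 h replicate 1 and -7.24 without replicate 2. Foxa1 (-0.64, adjusted p = 0.132), Hnf4a (adjusted p = 0.278) and Hhex (-0.02, adjusted p = 0.957) did not pass, though limma on log2(FPKM + 1) called Foxa1 (0.0283) and Hnf4a (0.00247).

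**Figure D4:**
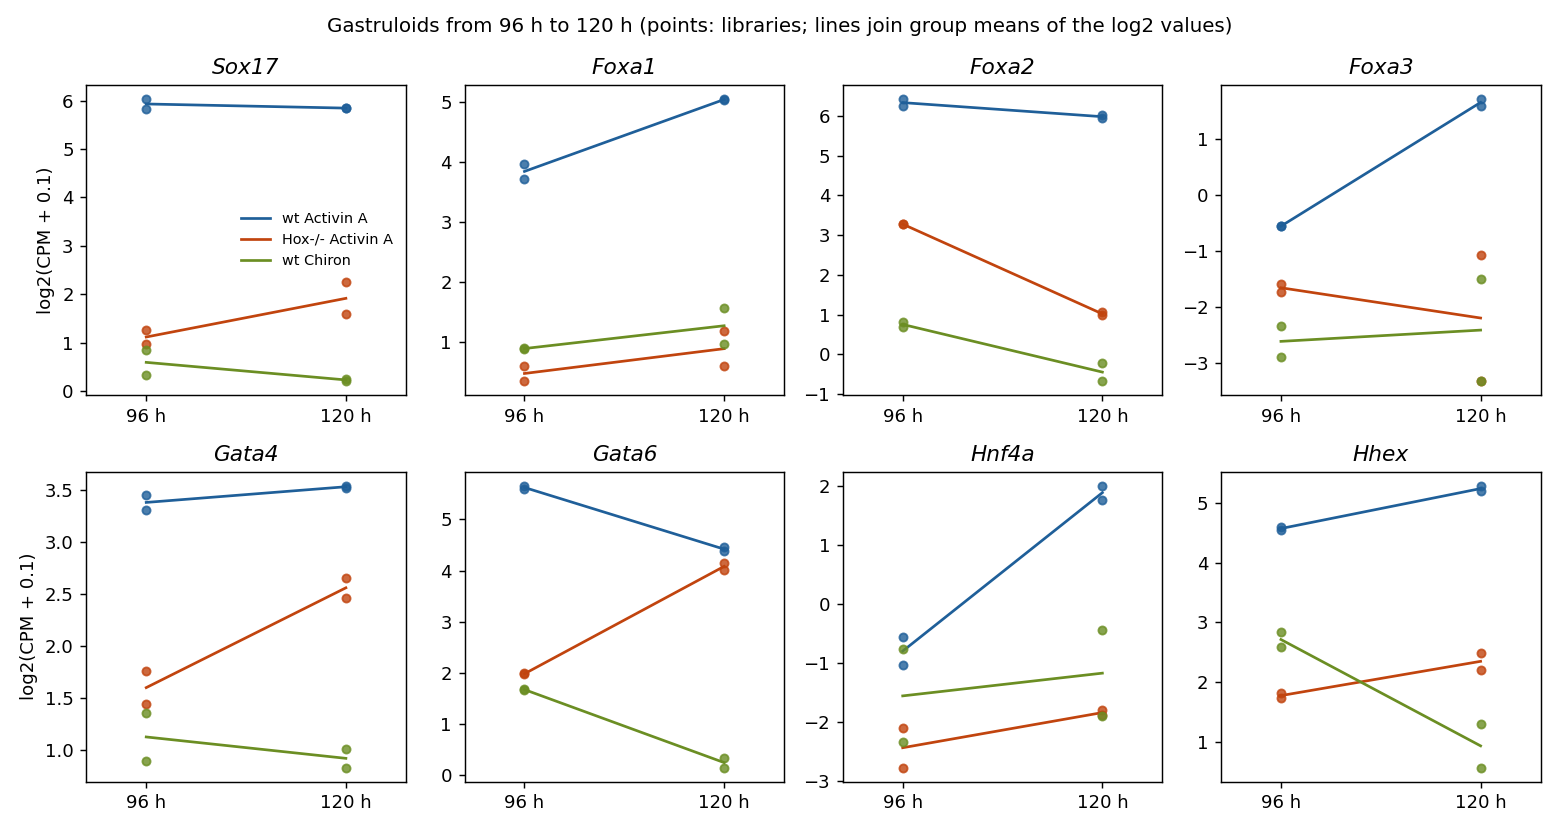
Level of each gene from 96 h to 120 h in gastruloids, as log2(CPM + 0.1) on the vertical axis; points are libraries, lines join group means, with wt Activin A, Hox-/- Activin A and wt Chiron gastruloids as separate lines. The Gata6 lines of wt and Hox-/- gastruloids converge at 120 h, while the Foxa2 lines move apart.

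Over time in wt Activin A gastruloids, 4 factors rose and 3 fell, beside 37.2% of genes higher and 37.8% lower. Hnf4a (7.06-fold), Foxa3 (4.94-fold), Foxa1 (2.17-fold) and Hhex (1.51-fold) rose, with edgeR adjusted p from 1.47e-14 to 1.59e-07. Gata6 fell 2.44-fold (adjusted p = 8.88e-20) and Foxa2 1.35-fold (adjusted p = 1.24e-08). Sox17 was called lower (log2 change -0.17, adjusted p = 0.0244), but its libraries overlapped and the call was lost under 7 alternatives. Gata4 did not pass (0.07, adjusted p = 0.631). The late gut-tube factor Foxa3 and the epithelial factor Hnf4a were thus among the genes that rose. The early factor Foxa2 fell, by less than Gata6, while Foxa1 and Hhex also rose and Sox17 and Gata4 gave no firm change. Whether late factors rose and early factors fell as a rule was not tested.

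In Hox-/- gastruloids 34.9% of genes were higher and 37.6% lower at 120 h. Gata6 rose 4.31-fold (adjusted p = 1.72e-19), Gata4 1.99-fold (1.54e-05), Sox17 1.78-fold (0.00249) and Hhex 1.49-fold (0.00614), and Foxa2 fell 5.02-fold (9.04e-15), by edgeR. Sox17 and Hhex did not pass without Hox-/- 120 h replicate 1 (adjusted p = 0.249 and 0.138), nor did Sox17 with limma on log2(FPKM + 1) (0.0888). Foxa1 (log2 change 0.48) and Foxa3 (-0.30) did not pass, and Hnf4a was at or below 3 counts at both times. Time and depth went together in the gastruloids, as the 120 h libraries were the shallower ones, and their part was not tested.

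Activin A and Chiron gastruloids of wt cells were compared next; the wt Activin A libraries are those used in the genotype comparison, so the 2 sets of values are not independent. At 96 h 7 of 8 factors were higher with Activin A, and at 120 h all 8 were. Foxa2 and Sox17 had the largest fitted differences, 48.2-fold and 39.5-fold at 96 h and 91.9-fold and 51.0-fold at 120 h. Of 17305 genes tested, 31.3% were higher and 30.2% lower with Activin A at 96 h, and 20.3% were higher and 21.6% lower at 120 h. The members' median log2 fold change was 3.01 at 96 h (2.59 with Foxa3 at its bound) and 4.24 at 120 h (4.01 with the bound), beside all-gene medians of -0.00121 and -0.00971.

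In Chiron gastruloids Sox17 read 1.17 and 1.70 CPM at 96 h and 1.09 and 1.06 CPM at 120 h, giving log2 fold changes of 5.30 (SE 0.124, adjusted p = 7.18e-21, edgeR) and 5.67 (SE 0.177, adjusted p = 1.1e-17). Foxa2 read 1.51 and 1.67 CPM, then 0.754 and 0.530 CPM, with log2 fold changes of 5.59 (SE 0.112, adjusted p = 4.23e-22) and 6.52 (SE 0.181, adjusted p = 1.4e-18). Both endoderm factors were thus detected in Chiron gastruloids, at no more than 1.70 CPM. Foxa1 read 1.75 and 1.74 CPM, then 1.84 and 2.86 CPM (2.97, SE 0.153, and 3.78, SE 0.174). Foxa3 was at or below 3 counts in all 4 Chiron libraries, so Activin A gastruloids were at least 4.63-fold higher at 96 h and at least 10.7-fold higher at 120 h. Gata6 read 3.12 and 3.05 CPM, then 1.01 and 1.17 CPM (3.94, SE 0.0992, and 4.24, SE 0.191). Gata4 had the smallest difference of the called genes at 120 h, from 1.68 and 1.91 CPM in Chiron gastruloids (2.63, SE 0.226), and at 96 h stood at 1.75 and 2.46 CPM (2.2, SE 0.159).

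Hhex was the highest member per length in Chiron gastruloids at 96 h (48.5% ± 1.15 of the summed FPKM, SD, n = 2), while at 120 h its share (20.9% and 31.8%) overlapped that of Foxa1 (13.4% and 25.2%). It read 5.89 and 7.04 CPM at 96 h and 2.35 and 1.38 CPM at 120 h, so the Activin A difference was 1.79 (SE 0.106, adjusted p = 5.55e-13) and then 4.24 (SE 0.171, adjusted p = 1.29e-15) on the log2 scale. Hnf4a read 0.0973 and 0.486 CPM at 96 h, overlapping the 0.578 and 0.388 CPM of Activin A gastruloids (0.50, SE 0.544, adjusted p = 0.443); without Chiron 96 h replicate 2 the value was 2.17 (adjusted p = 0.0359). At 120 h it read 0.168 and 0.636 CPM against 3.89 and 3.29 CPM (3.18, SE 0.507, adjusted p = 2.03e-05), and the value was 2.44 without Chiron 120 h replicate 1 and 4.30 without replicate 2.

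**Figure D5:**
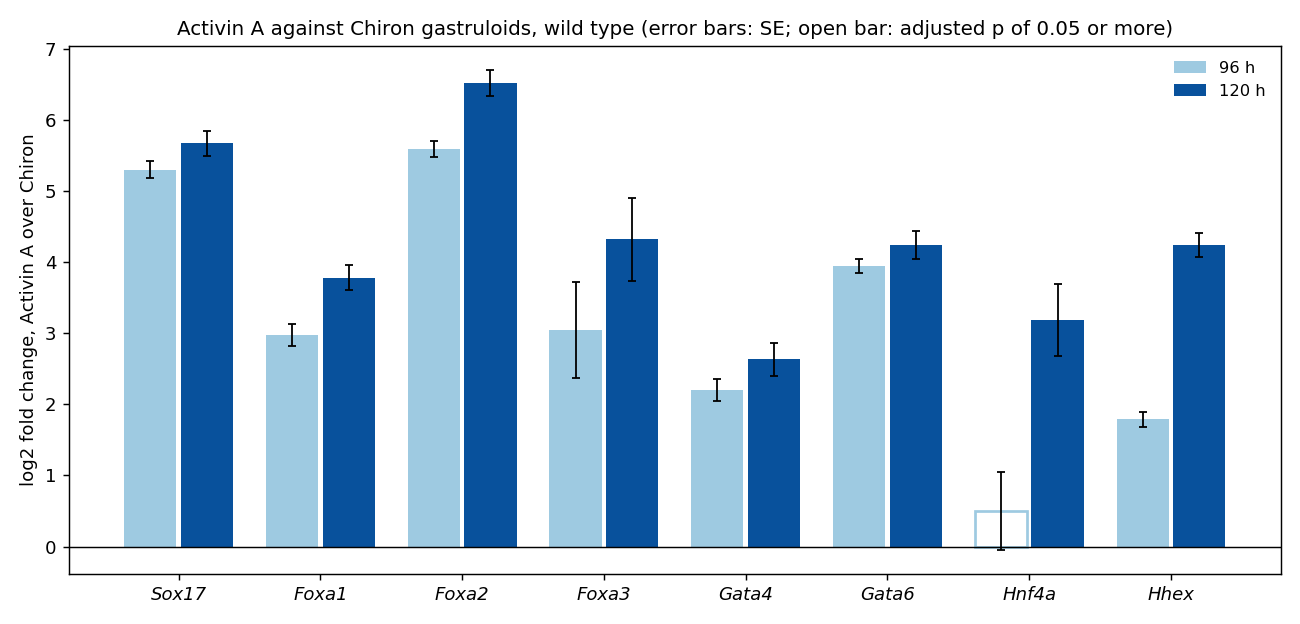
Log2 fold change of Activin A over Chiron gastruloids of wt cells (vertical axis) for each gene at 96 h and 120 h; error bars are SE and the open bar (Hnf4a at 96 h) did not pass an adjusted p of 0.05. Sox17 and Foxa2 stand above 5 at both times, Hhex goes from 1.79 to 4.24, and the Foxa3 bars are fitted values against Chiron libraries at or below 3 counts.

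The treatment difference changed with time for 3 genes, all toward a larger Activin A excess at 120 h, beside 21.7% of all genes higher and 18% lower in that test. Hhex had the clearest change (2.45, SE 0.231, adjusted p = 9.79e-09, edgeR), with Hhex rising in Activin A and falling in Chiron gastruloids. Hnf4a (2.69, SE 0.812, adjusted p = 0.0107) and Foxa1 (0.81, SE 0.282, adjusted p = 0.0255) were called too. The Hnf4a call was lost without Chiron 120 h replicate 1 (1.96) or Chiron 96 h replicate 2 (1.03), and the value was 3.82 without Chiron 120 h replicate 2. It was also lost with limma on log2(FPKM + 1) (adjusted p = 0.067). The Foxa1 call was lost without Chiron 120 h replicate 1 (0.51), Chiron 96 h replicate 2 (0.80) or wt Activin A 96 h replicate 1 (0.68). DESeq2 (adjusted p = 0.069) and limma on log2(FPKM + 0.1) (0.082) did not call Foxa1 either. Within Chiron gastruloids, where 28.5% of genes were higher and 33.2% lower at 120 h, Hhex (-1.87), Gata6 (-1.61) and Foxa2 (-1.38) fell and the other 5 did not pass.

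Endoderm cultures were also compared with the mES cells they came from. In wt cells 7 of 8 factors were higher after differentiation and Hhex was lower (log2 fold change -1.56, SE 0.161, adjusted p = 2.32e-08, edgeR), beside 41.6% of 16251 genes higher and 38.3% lower. Sox17 was 121-fold higher, from 4 and 1 counts (0.266 and 0.0777 CPM) in mES cells, and its log2 fold change of 6.91 became 8.05 without wt mES replicate 1 and 6.36 without replicate 2. Gata4 was 74.6-fold higher, from 0.996 and 1.24 CPM. Foxa1, Foxa2 and Gata6 were at or below 3 counts in wt mES cells and at least 76.2-fold, 86.1-fold and 90.8-fold higher in wt endoderm cultures. Foxa3 was 12.1-fold higher (log2 fold change 3.60, and 3.00 or 4.49 without either wt mES library) and Hnf4a 3.41-fold higher.

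In Hox-/- cells 6 factors were higher and 2 lower, beside 42.7% of genes higher and 37.9% lower. Gata4 was 64.5-fold higher, Gata6 at least 35.6-fold, Foxa1 at least 37.8-fold, Sox17 at least 20.5-fold, Foxa2 at least 17.6-fold and Foxa3 2.36-fold. Hhex was 7.21-fold lower. Hnf4a went in opposite directions in the 2 genotypes, being 1.62-fold lower in Hox-/- endoderm cultures than in Hox-/- mES cells (adjusted p = 0.00616, and 0.113 without Hox-/- mES replicate 2). The change with differentiation differed between genotypes for Hnf4a (-2.46, SE 0.27, adjusted p = 1.39e-06), Hhex (-1.29, SE 0.251, adjusted p = 0.000794) and Foxa3 (-2.36, SE 0.544, adjusted p = 0.00328, 0.0559 without Hox-/- mES replicate 1, and -1.77 or -3.26 without either wt mES library), beside 11.6% of genes higher and 12.5% lower. For Gata4 it did not pass (-0.21, adjusted p = 0.828), and Sox17 (0.0903) and Foxa2 (0.0958) passed only with DESeq2 (0.0459 and 0.0478). The mES and endoderm libraries come from separate deposited tables of counts, so culture and table cannot be told apart.

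In mES cells no factor was called between genotypes by edgeR, DESeq2 or limma, beside 12.4% of 13631 genes higher and 10.8% lower. Only Foxa3, Gata4, Hnf4a and Hhex had enough counts to be tested, and 1 of these 4 had an unadjusted p under 0.05. That gene was Gata4, at 0.448 and 0.504 CPM in Hox-/- against 0.996 and 1.24 CPM in wt mES cells (log2 fold change -1.21, SE 0.476, adjusted p = 0.0605, and 0.0597 to 0.602 over the alternatives). Hhex (0.13, SE 0.147) and Hnf4a (-0.27, SE 0.224) overlapped between genotypes. Sox17, Foxa1, Foxa2 and Gata6 had 0 to 4 counts in each of the 4 libraries, so a difference between genotypes was not detectable at this depth.

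Genes around the members were listed to see which reads could be shared. Sox17 (chr1:4490931-4497354, mm10, minus strand) overlaps 804 exonic bases of Gm37587 on the other strand, which held at most 0.219 CPM as a group mean. Foxa2 (chr2:148042877-148046969, minus) has the lincRNA 9030622O22Rik 2674 bases downstream on the same strand. That lincRNA stood at 2.46 CPM in wt and 0.324 CPM in Hox-/- endoderm cultures and at 20.9 and 0.374 CPM in gastruloids at 120 h, with log2 fold changes of -2.89 (adjusted p = 8.95e-06, edgeR) and -5.72 (adjusted p = 1.47e-21). In the 96 h gastruloids Hox-/- cells held at least 13.9-fold less of it (adjusted p = 4.55e-11). Gm38345, 154 bases from Hhex (chr19:37434810-37440731, plus) on the other strand, was lower in Hox-/- gastruloids at 96 h (-1.46, adjusted p = 0.00127) and 120 h (-1.04, adjusted p = 0.0337).

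Foxa1 (chr12:57540628-57546121, minus) had no annotated neighbour within 10 kb. Sympk, 839 bases from Foxa3 (chr7:19013284-19023538, minus) on the other strand, is a widely expressed RNA processing gene and moved by at most 0.30 in the genotype comparisons, while Foxa3 fell by 1.90 in endoderm cultures. Neil2, 5381 bases from Gata4 (chr14:63198922-63271692, minus), is a DNA repair gene and was lower in Hox-/- endoderm cultures (-0.61, adjusted p = 0.0057, edgeR). Gata6os, antisense at Gata6 with 93 shared exonic bases, was at least 2.93-fold lower in Hox-/- gastruloids at 96 h (adjusted p = 0.0268) and did not pass at 120 h (-0.5, adjusted p = 0.315). Hnf4aos overlaps Hnf4a (chr2:163506808-163572910, plus) in no exon and had no counts. Whether strand was used in counting is not given in the sources used here, so reads over shared exons cannot be assigned.

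Genes with the most similar profiles were found as the highest Pearson correlation of log2(CPM + 1) over the 22 libraries, which share the groups and their differences in depth. The mean profile of the 8 factors was closest to Cfc1 (0.981), a Nodal co-receptor gene, then to Irs4 (0.974) and Flt1 (0.955), followed by Lamb3, Atp8a1, Krt7, Stk32a, Podxl, Arhgap6 and Fkbp11 (0.943). Sox17 was closest to Cfc1 (0.964), Foxa1 to Irs4 (0.969), Foxa2 to Lrrn4 (0.966), Foxa3 to Ctsz (0.952), Gata4 to Ptpn18 (0.979), Gata6 to Kif26a (0.955), Hnf4a to Hook2 (0.926), and Hhex to Gpx2 (0.938). Among the members, Sox17 was closest to Foxa2 (0.954), and Foxa3 to Hnf4a (0.869), while Hhex and Gata4 had a correlation of -0.231.

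The genes upstream of the factors were taken from a list of 14 Nodal pathway and mesendoderm genes. In Hox-/- endoderm cultures 3 of them were higher and 9 lower (median log2 fold change -0.88). In Activin A gastruloids 3 were higher and 10 lower at 96 h (median -0.95) and 6 higher and 8 lower at 120 h (median -0.26). The 96 h split depended on scaling, with 1 higher and 11 lower with total counts alone. In gastruloids at 96 h Lhx1 (-3.15), Otx2 (-4.08), Eomes (-2.38), a T-box factor of mesendoderm, and the Nodal co-receptor gene Tdgf1 (-1.29) were lower. At 120 h Otx2 was still lower (-3.63) while the ligand gene Nodal (0.91) and its feedback inhibitor Lefty2 (0.86) were higher in Hox-/- gastruloids. In endoderm cultures the genes with the smallest p were Foxh1 (-1.53), Tdgf1 (-1.21), Eomes (-1.03) and Otx2 (-1.51). With Activin A against Chiron, 11 of 14 were higher at 96 h and 10 at 120 h, with Eomes at 6.84 and Mixl1 at 3.32 at 96 h.

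Genes of the embryonic epithelium and endoderm surface, a list of 12, moved with the factors. All 12 were lower in Hox-/- endoderm cultures (median -0.69), where their sum was 852 to 950 CPM against 1635 to 1661 CPM in wt. In gastruloids 9 were lower and 1 higher at 96 h (median -0.84), or 10 lower and 0 higher with total counts alone. At 120 h 11 were lower (median -4.00), when the sum was 226 and 233 CPM against 2007 and 2078 CPM. The Nodal and Wnt antagonist gene Cer1 was lower at 96 h (-6.83), and E-cadherin (Cdh1, -3.90), keratin 18 (Krt18, -4.93) and claudin 6 (Cldn6, -4.38) at 120 h. The part of a smaller epithelial share of cells in the levels of the 8 factors was not tested.

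Other cell types that express some of these factors were followed through their own marker lists. Of 15 visceral endoderm genes 9 could be tested in endoderm cultures, and 7 were lower in Hox-/- cells (median -1.42; sum 105 to 150 CPM against 252 to 313 CPM), led by Apob (-2.63), Apoa1 (-3.14), Cubn (-1.42) and Dab2 (-1.08). In wt endoderm cultures the list ran from Dab2 (87.2 to 115 CPM), Apob (80.5 to 101 CPM), Lrp2 (43.8 to 55.0 CPM) and Cubn (23.1 to 28.4 CPM), through 5 genes with at least 1 CPM in every library (Amn, Apoa1, Apoa4, Rbp4 and Sox7), to Ttr, whose lowest library held 0.511 CPM, and 5 genes at or below 0.3245 CPM (Afp, Alb, Apoa2, Fga and Fgb). In gastruloids at 96 h 2 of 11 tested visceral genes were lower and 1 higher (median -0.25), with sums of 27.4 and 30.8 CPM in Hox-/- against 23.6 and 26.3 CPM in wt. At 120 h 9 were lower and 1 higher (sums 19.1 and 20.1 CPM against 48.5 and 54.9 CPM). Parietal endoderm genes showed no single direction, with 3 higher and 4 lower of 8 in endoderm cultures. Their part in the results was not tested.

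Foxa2 is also a gene of the node and notochord. Of 7 such genes 6 were tested in gastruloids; 5 were lower and 1 higher in Hox-/- at 96 h, and all 6 were lower at 120 h (sums 172 and 179 CPM against 401 and 410 CPM). Chrd (-3.39) and Noto (-4.42) were lower at 96 h, Noto was at least 53.7-fold lower at 120 h, and Shh was at least 14.1-fold lower at 96 h. The list's sum at 96 h was higher in Hox-/- (2122 and 2156 CPM against 1810 and 1869 CPM), with the primitive streak gene T alone at 2129 CPM against 1730 CPM. In endoderm cultures Noto held at most 0.438 CPM, and 3 of 5 tested node genes were higher and 2 lower, while Foxa2 was 4.44-fold lower. The part of node cells in the Foxa2 difference of gastruloids was not tested.

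Gata4 and Gata6 are also heart genes, and Hhex and Sox17 are also expressed in endothelium. Of 9 heart genes tested in gastruloids at 120 h, 6 were lower and 2 higher in Hox-/- (sum 27.6 and 30.1 CPM against 46.8 and 54.5 CPM). In endoderm cultures 3 of 9 heart genes were lower and 1 higher (median -0.14), and the sum was 135 to 146 CPM in Hox-/- against 84.0 to 113 CPM in wt, with Actc1, the cardiac actin gene, alone at 112 against 66.1 CPM. Endothelial genes summed to 61.6 to 65.5 CPM in Hox-/- against 124 to 137 CPM in wt endoderm cultures, and to 56.5 and 58.5 against 116 and 124 CPM in gastruloids at 96 h. Gene by gene, 4 of 7 tested were lower and 1 higher in endoderm cultures (median -0.85). At 96 h only 3 of 9 tested were lower and 1 was higher (median -0.24). Of 9 endothelial genes tested at 120 h, 1 was lower and 5 higher (sum 125 and 128 CPM against 109 and 116 CPM), with Flt1 at -3.15 and Kdr at 0.82. Cdh5, the endothelial cadherin gene, stayed between 0.701 and 2.71 CPM in the endoderm cultures and Activin A gastruloids. The part of heart and endothelial cells in the results was not tested. All 9 pluripotency genes were lower in Hox-/- endoderm cultures (249 to 271 CPM in sum against 848 to 993 CPM), and their part was not tested.

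Relatives and regional genes did not all move like the members. Of 12 listed regional gut genes 6 were tested in each of these genotype comparisons. In Hox-/- endoderm cultures 3 were higher and 3 lower. In gastruloids 1 was higher and 2 lower at 96 h, and 1 higher and 4 lower at 120 h. Pax9, a foregut gene, was lower in Hox-/- endoderm cultures (-4.47) and in gastruloids at 120 h (-4.09), by edgeR. Cdx2, a posterior gut and tail homeobox gene, was higher in Hox-/- endoderm cultures (1.08) and in gastruloids at 96 h (0.40) and 120 h (0.74). Of 9 listed relatives 5 were tested in endoderm cultures, and 0 were higher and 2 lower in Hox-/-. In gastruloids 6 were tested, with 0 higher and 2 lower at 96 h and 2 higher and 2 lower at 120 h. Of the GATA relatives, Gata3 was lower (-2.49) and Gata5 higher (0.62) in Hox-/- gastruloids at 120 h. The Sox17 relative Sox7 was also higher there (2.02). None of these 3 passed at 96 h (-0.71, -1.23 and 1.52), and Gata3 (0.04) and Sox7 (0.02) did not pass in endoderm cultures.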

How the data were processed

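Bulk RNA-seq of 22 mouse libraries was analysed from 4 deposited tables of whole-number gene counts and 4 tables of FPKM that the authors made. Reads were processed with cutadapt 1.16, STAR and Cufflinks 2.2.1 against mm10, per the submitters' processing notes; their roles, the annotation and the strand setting of counting are not given in the sources used here. Libraries were poly(A)-selected with a stranded kit, per the labels. FPKM values, deposited by the authors, were used for comparisons between genes and as an alternative scale.

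The 8 members and the gene lists were chosen with earlier results of these data known. Counts were tested with edgeR 4.0.16 (R 4.3.3): TMM scaling, filterByExpr, quasi-likelihood test, Benjamini-Hochberg adjustment over all genes of the fit, 14 comparisons, called at an adjusted p under 0.05. Each table was fitted with its own groups (2 or 4); mES and endoderm tables were joined for differentiation. A group at or below 3 counts in every library gives a lower bound of the fold. Named are all 8 members, up to 4 called genes with the smallest p per list and genotype or treatment comparison, list genes as cell type markers, annotated genes within 10 kb of a member, and the 3 most similar genes per member and 10 for the mean among 13264 genes of at least 5 CPM in a group. The members' positions are those of the deposited tables, with starts written 1-based; of 54804 IDs shared with GENCODE M21, 51302 had the same position. Replicate numbers do not pair the libraries: deviations of same-numbered libraries correlated by -0.151 to 0.167. The wt Activin A libraries had identical values in the tables that share them. Alternatives were other scalings and filters, DESeq2 1.42.0, limma 3.58.1 on log2(FPKM + 1) and log2(FPKM + 0.1), a replicate block, fits of the 2 groups alone and leaving out each library. The edgeR test with TMM scaling was tried on simulated data for some of the 14 comparisons, and the outcome is not given here. The other methods were not tried on simulated data.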

Additional observations from a re-analysis of the deposited data

Results flagged for a closer look

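For 11 results the difference between 2 groups' effects was itself tested and passed. The Hox-/- against wt difference in Activin A gastruloids changed from 96 h to 120 h for Gata6 (3.39 on the log2 scale), Sox17 (1.00), Gata4 (0.92), Foxa2 (-1.89) and Foxa3 (-2.60). The Activin A against Chiron difference changed between these times for Hhex (2.45), Hnf4a (2.69) and Foxa1 (0.81). The change from mES cells to endoderm cultures differed between genotypes for Hnf4a (-2.46), Foxa3 (-2.36) and Hhex (-1.29). Only those of Gata6 and Foxa2 by time in Hox-/-, of Hhex with treatment, and of Hnf4a and Hhex with differentiation passed under every alternative that tested them.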

How the results depend on the processing

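Limits: with 2 or 3 libraries per group, precision rests on a spread shared over genes, and where a library is left out of a pair the lone one is assumed to vary like the other groups. The counts of members called in the genotype comparisons were 8 in endoderm cultures under all alternatives, 6 to 7 at 96 h, 6 to 8 at 120 h and 0 in mES cells. Requiring at least 10 counts in every library left 5 members to test and call with Activin A against Chiron at 120 h (8 otherwise), and 2 in endoderm against mES cells for wt and 2 for Hox-/- (8 otherwise), because fewer genes were tested. DESeq2 called 5 members for genotype by differentiation (3 by edgeR). Limma on log2(FPKM + 0.1) called 2 for genotype by time (5) and 1 for treatment by time (3); the cause was not tested. Gata6 in treatment by time reversed, from 0.31 (not called) to -0.55 with limma on log2(FPKM + 1) (adjusted p = 0.0215); the cause was not tested. Leaving out 1 library gave 3 to 5 for genotype by time and 3 to 5 for time in Hox-/- gastruloids (the lowest without Hox-/- 120 h replicate 1), and 1 to 4 for treatment by time (the lowest without Chiron 120 h replicate 1 or Chiron 96 h replicate 2). Over all genes, DESeq2 called 1098 in mES cells (3168 by edgeR) and 3647 by genotype at 96 h (6546). Limma on log2(FPKM + 1) called 23, 2665, 4469 in endoderm cultures (6922) and 4193 for genotype by time (6544); on log2(FPKM + 0.1) it called 357, 2748 at 96 h, 4239 for genotype by time and 6684 with Activin A at 96 h (10655). Without wt mES replicate 1 or 2, 1477 and 1690 were called. The replicate block left every count of members called as it was (8 in endoderm cultures, 7 at 96 h, 7 at 120 h). Genes listed in either table could not serve as an alternative, since the mES and endoderm tables list the same genes, and fits joining FPKM tables were not run. At 9108085 to 28819301 counts per library, 3 counts are 0.104 to 0.329 CPM, which limits Foxa3 and Hnf4a in gastruloids.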
